A study of Mus musculus with 5 samples.

Results

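The Gata genes encode 6 transcription factors, Gata1 to Gata6, which bind the short DNA sequence GATA through a pair of zinc fingers. They were examined here as carriers of H3K27me3, the trimethylated form of lysine 27 of histone H3, in molar mesenchyme. Each gene was taken with 5 kb on each side of its body, called its locus below, in the GENCODE M21 annotation of the mouse genome build GRCm38. All 6 genes were found among 21938 protein-coding genes. Their loci held 63 of the 22757 peaks of H3K27me3 replicate 1 called against input, 59 of the 24881 peaks of the same library called against IgG, and 37 of the 33379 peaks of replicate 2 called against input.

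Gata1, Gata2 and Gata3 are known for blood cell development. Gata1 drives red cell and megakaryocyte differentiation, Gata2 maintains blood stem and progenitor cells, and Gata3 is required for T cells and for several epithelia. Gata4, Gata5 and Gata6 are known for the development of the heart and of endodermal organs. H3K27me3 is written by Ezh2, the enzyme of the Polycomb complex PRC2. The mark is typical of developmental regulators that are silent in a tissue, often over CpG-rich DNA.

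The tissue came from molars of C57BL/6 mice of wildtype genotype, dissected on postnatal day 3, and was the mesenchyme left after the epithelium had been taken off. The 5 libraries were 2 of H3K27me3, 2 of input chromatin and 1 of a nonspecific IgG antibody, and all of them share this genotype, strain and age. There was no mutant or treated group, so the peaks describe a single condition. Whether each library stands for its own animals is not given in the labels, so an SD below is the spread between 2 libraries and may be technical. After removal of duplicates, replicate 1 had 30369351 tags of 49 bp and replicate 2 had 49947919 tags of 74 bp, so depth, tag length and replicate cannot be told apart. In bulk tissue, the peaks also do not tell how many of the cells carried the mark.

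Reference sequence is shown for 4 promoter windows, so that their CpG content can be read beside the peaks that did or did not cover them. CpG is the dinucleotide at which mammalian DNA is methylated, and stretches dense in it are frequent sites of Polycomb binding. Promoter windows of 250 bases before to 50 bases after a RefSeq transcript start (GRCm38.p6) were at hand for 4 of the 6 genes. The Gata2 and Gata5 windows shown lie at the gene 5′ end, while those of Gata3 and Gata1 lie at starts 11.4 kb and 10.2 kb inside the gene. Each CG, the only motif searched, is in capitals, and both strands hold it at the same place. Of 32851 promoters of this length in the table, 94.6% held at least 1 CG, and the median was 7.
Gata2 promoter (chr6:88193641-88193940, plus strand, 32 CG): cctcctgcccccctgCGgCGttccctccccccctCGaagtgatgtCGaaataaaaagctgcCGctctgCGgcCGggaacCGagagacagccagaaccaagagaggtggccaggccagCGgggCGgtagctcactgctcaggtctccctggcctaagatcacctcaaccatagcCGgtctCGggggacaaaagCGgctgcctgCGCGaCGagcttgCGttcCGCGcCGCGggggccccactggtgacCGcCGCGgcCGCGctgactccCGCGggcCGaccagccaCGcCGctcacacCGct
Gata3 internal promoter (chr2:9878551-9878850, minus strand, 22 CG): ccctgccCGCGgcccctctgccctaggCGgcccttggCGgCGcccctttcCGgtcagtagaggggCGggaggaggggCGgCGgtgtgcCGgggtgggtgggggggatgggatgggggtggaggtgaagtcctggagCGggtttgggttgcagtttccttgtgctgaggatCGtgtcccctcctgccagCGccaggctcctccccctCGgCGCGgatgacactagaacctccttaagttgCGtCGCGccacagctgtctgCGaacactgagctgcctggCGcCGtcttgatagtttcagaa
Gata5 promoter (chr2:180334630-180334929, minus strand, 26 CG): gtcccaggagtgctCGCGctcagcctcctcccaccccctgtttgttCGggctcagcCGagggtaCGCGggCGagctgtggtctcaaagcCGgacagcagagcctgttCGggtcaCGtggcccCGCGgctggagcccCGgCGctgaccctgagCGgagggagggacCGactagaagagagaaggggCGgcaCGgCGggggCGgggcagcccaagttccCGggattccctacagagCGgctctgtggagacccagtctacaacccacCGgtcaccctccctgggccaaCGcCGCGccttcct
Gata1 internal promoter (chrX:7967861-7968160, minus strand, 4 CG): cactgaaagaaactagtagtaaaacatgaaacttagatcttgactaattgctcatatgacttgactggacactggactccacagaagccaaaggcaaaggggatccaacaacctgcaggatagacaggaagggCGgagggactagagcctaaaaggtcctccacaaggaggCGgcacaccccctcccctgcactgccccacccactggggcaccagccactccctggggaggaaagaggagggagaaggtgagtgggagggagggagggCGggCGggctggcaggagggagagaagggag

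The Gata2 window held more CG than 90.5% of promoters in the table, the Gata5 window more than 83.1% and the Gata3 window more than 76.9%. The Gata1 window held more than 31.4%. A replicate 1 peak called against input covered 35 bases at the 3′ end of the Gata2 window, and an IgG-called peak of the same library covered 46 bases of the Gata3 window. No peak of any list covered the Gata5 or Gata1 windows. A further Gata2 window (chr6:88198414-88198713, 29 CG), likewise at a start inside the gene, was covered by replicate 2 over 279 of its 300 bases and by replicate 1 over 0 bases. Where these windows were covered, it was by a different list each time.

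A peak was present in both replicates at 5 of the 6 loci, and at 15.7% of all protein-coding loci. The 5 were Gata2, Gata3, Gata4, Gata5 and Gata6. In single lists the same 5 loci held peaks, where the share of protein-coding loci was 25% in the input-called and 25.9% in the IgG-called list of replicate 1, and 35.7% in that of replicate 2. Gata1 held 0 peaks in each list. When replicate 2 was reduced to as many peaks as replicate 1 by lowest p-value, Gata5 lost its replicate 2 peak and 4 loci remained, beside 13.3% of all loci. At a fold enrichment of 3 or higher 0 Gata loci and 0.251% of all loci had a peak in both replicates. At a −log10 p of 3 or higher it was 1 Gata locus and 0.707% of all loci. No test was made, since the design holds 1 condition.

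**Figure D1:**
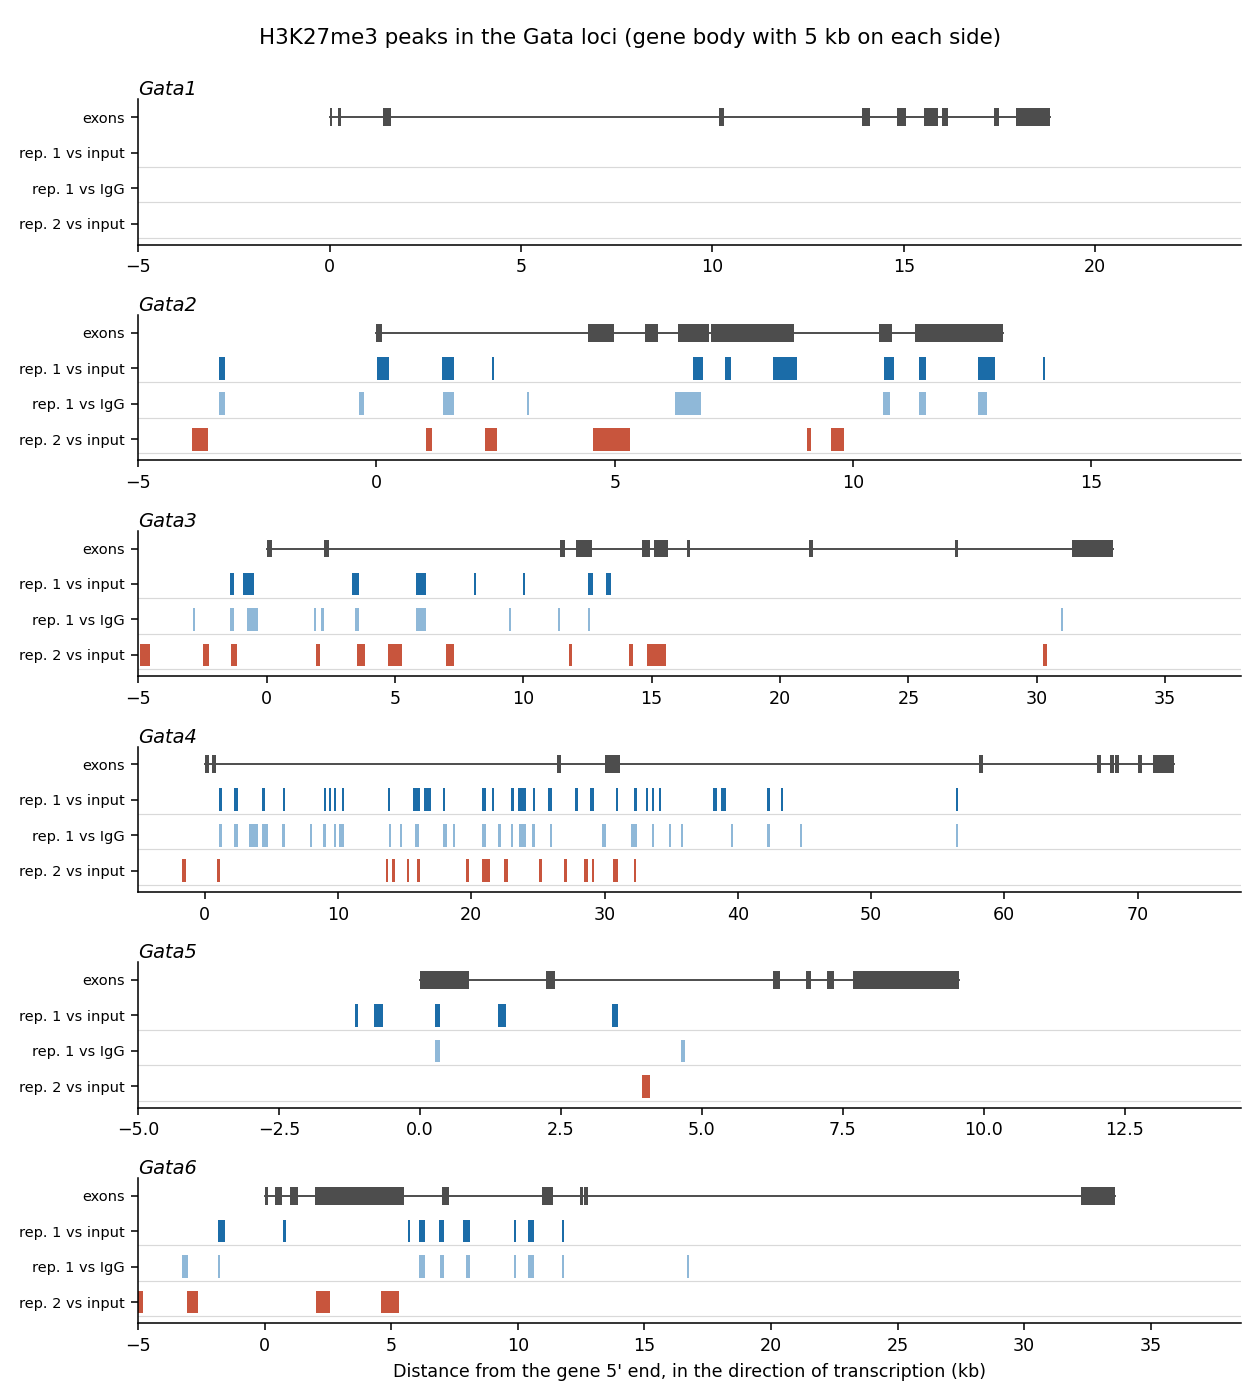
Position of H3K27me3 peaks (boxes) in the 6 Gata loci, 1 panel for each gene and 1 row for each peak list, with exons of all annotated transcripts as grey boxes. The x axis is the distance from the gene 5′ end in kb in the direction of transcription, with its own range in each panel. Gata1 has no box in any list, and the boxes of Gata4 run along its introns, to 56.4 kb from the 5′ end in replicate 1.

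The share of a locus covered by peaks was used to compare genes of unequal length. Gata2 (ENSMUSG00000015053.14, chromosome 6, 88193891 to 88207032, plus strand) had the highest share. Replicate 1 covered 9.77% and replicate 2 covered 7.89%, which gave 8.83% ± 1.32 (SD, n = 2). Called against IgG, replicate 1 covered 6.65% of the same locus. The mean lay above that of 99.6% of protein-coding genes and ranked 88 among them. Over the gene body without its flanks the mean was 13.6%.

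Gata3 (ENSMUSG00000015619.10, chromosome 2, 9857078 to 9890034, minus strand) was covered to 4.23% in replicate 1, 3.91% against IgG and 7.82% in replicate 2, with 6.03% ± 2.54 (SD, n = 2) as the mean. Gata4 (ENSMUSG00000021944.15, chromosome 14, 63198922 to 63271692, minus strand) was covered to 7.62%, 7.53% and 4.28% in the same order, a mean of 5.95% ± 2.36. Replicate 2 was thus higher at Gata3 and lower at Gata4. Both means exceeded those of 99.3% of protein-coding genes.

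Gata6 (ENSMUSG00000005836.10, chromosome 18, 11052064 to 11085635, plus strand) was covered to 3.23% in replicate 1, 2.74% against IgG and 4.29% in replicate 2, with 3.76% ± 0.748 (SD, n = 2) as the mean, above 98.9% of genes. Gata5 (ENSMUSG00000015627.5, chromosome 2, 180325133 to 180334699, minus strand) was covered to 2.84%, 0.828% and 0.7%, a mean of 1.77% ± 1.51, above 97.7% of genes. Replicate 1 against input was the high value at Gata5, and with the IgG-called list in its place the mean was 0.764%. Gata1 (ENSMUSG00000031162.14, chromosome X, 7959260 to 7978071, minus strand) was covered to 0% in every list.

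The order of the means was therefore Gata2, Gata3, Gata4, Gata6, Gata5 and Gata1. Gata2 exceeded each of the others by more than the larger SD of the genes compared, with a difference from Gata3 of 2.8 percentage points against an SD of 2.54. Within replicate 2 these loci lay at 7.89% and 7.82%. With replicate 1 called against IgG the means were 7.27% for Gata2 and 5.87% for Gata3. Gata3 and Gata4 did not differ beyond their spread, and neither differed from Gata6 beyond it. Gata6 exceeded Gata5, and Gata5 exceeded Gata1, by more than the larger SD. The median of these means over the 6 genes was 4.85%, while the median over all protein-coding genes was 0%. Within single lists the median over the 6 genes was lower, at 3.73% in replicate 1, 3.33% against IgG and 4.29% in replicate 2. Over the bases of the 6 loci together, peaks covered 5.13% in replicate 1, 4.49% against IgG and 4.46% in replicate 2, compared with 0.11%, 0.123% and 0.238% of the nuclear genome.

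**Figure D2:**
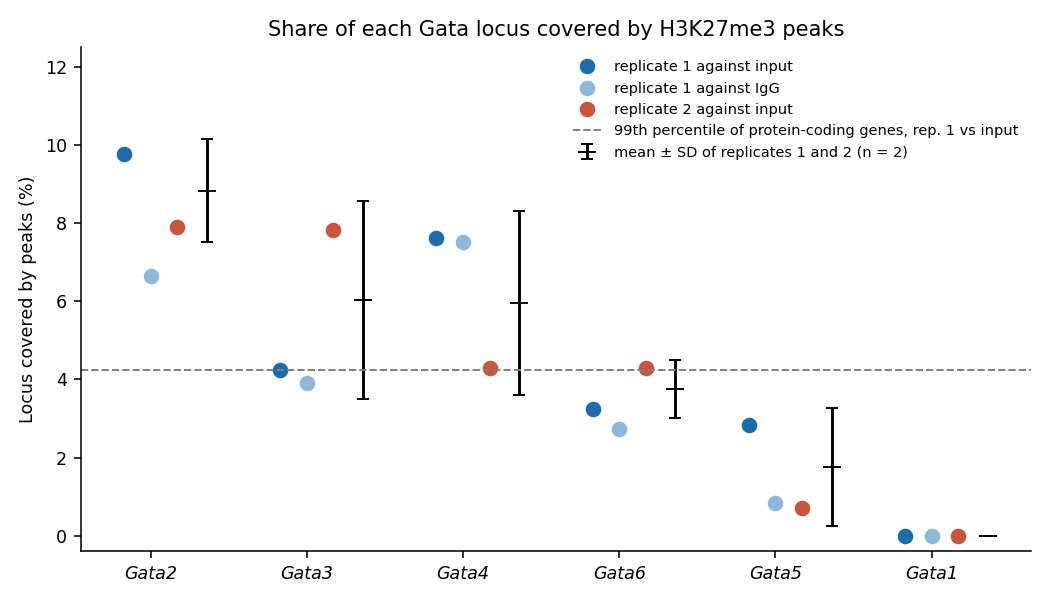
Share of each Gata locus covered by peaks, in percent of its bases. Circles are the 3 peak lists, horizontal ticks with bars are the mean ± SD of replicates 1 and 2 against input (n = 2), and the dashed line is the 99th percentile of protein-coding genes in replicate 1 against input (4.24%). Gata2 lies highest at 8.83% and Gata1 lies at 0%.

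In order to see how marking was laid out along each gene, peaks were assigned to annotated features. In replicate 1, 45 of the 63 peaks lay in introns, 8 touched coding exons, 2 touched only UTR sequence, 1 a noncoding exon, 6 the upstream flank and 1 the downstream flank. In replicate 2, 25 of 37 lay in introns, 3 touched coding exons, 1 UTR sequence, 1 a noncoding exon and 7 the upstream flank. At Gata2, 4 of 11 replicate 1 peaks touched coding exons, while of its 6 replicate 2 peaks 0 did so and 4 were intronic. The peaks of Gata4 were nearly all intronic, with 29 of 30 in replicate 1, 28 of 29 against IgG and 13 of 15 in replicate 2. The gene 5′ end, here and below, is the most upstream annotated start. Intronic peaks of Gata4 therefore include peaks upstream of its starts 26.4 kb inside the gene.

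The 5′ side of the genes held most of the peaks. Of the peaks with their midpoint in a Gata gene body, 45 of 56 (80.4%) in replicate 1, 44 of 52 (84.6%) against IgG and 27 of 30 (90%) in replicate 2 were nearer to the 5′ end than to the 3′ end. Over all protein-coding genes these shares were 56.4%, 56.7% and 51.6%. At Gata4 the counts were 25 against 5 in replicate 1 and 14 against 0 in replicate 2. At Gata3 they were 6 against 0 and 7 against 1, and at Gata6 8 against 0 and 2 against 0. Gata2 was the exception in replicate 1, with 3 peaks on the 5′ side and 6 on the 3′ side, and had 3 and 2 in replicate 2.

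Peaks 5 kb or less apart were merged to measure the stretch that marking took up. At Gata4, a regulator of heart and gonad development, 29 replicate 1 peaks formed a stretch of 42.3 kb (63228341 to 63270618), and 13 replicate 2 peaks formed one of 18.7 kb (63239388 to 63258068) inside it. At Gata3 the longest stretch was 18.9 kb in replicate 1 and 22.5 kb in replicate 2. Gata2 had stretches of 17.3 kb and 13.7 kb, which took in the whole gene body in replicate 1, and Gata6 had 13.6 kb and 10.4 kb. Gata5 had 8.78 kb in replicate 1 and a single peak of 0.137 kb in replicate 2.

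Coverage around the genes was measured up to 100 kb from the 5′ ends. Within 20 kb on either side of the 5′ ends, peaks covered 3.77% in replicate 1, 3.81% against IgG and 3.81% in replicate 2, over the 6 genes together. At a distance of 50 to 100 kb these shares were 0.249%, 0.152% and 0.483%. Gata5 differed little between these distances in replicate 2, with 0.343% and 0.273%. At Gata4 the 5 kb bin from 20 to 25 kb downstream of the 5′ end was covered to 28.6% in replicate 1, 22.3% against IgG and 18.8% in replicate 2. The bin from 0 to 5 kb was covered to 12.9%, 32.2% and 4.76%. In the bins from 35 to 45 kb replicate 1 had coverage with either control, and replicate 2 had 0%.

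**Figure D3:**
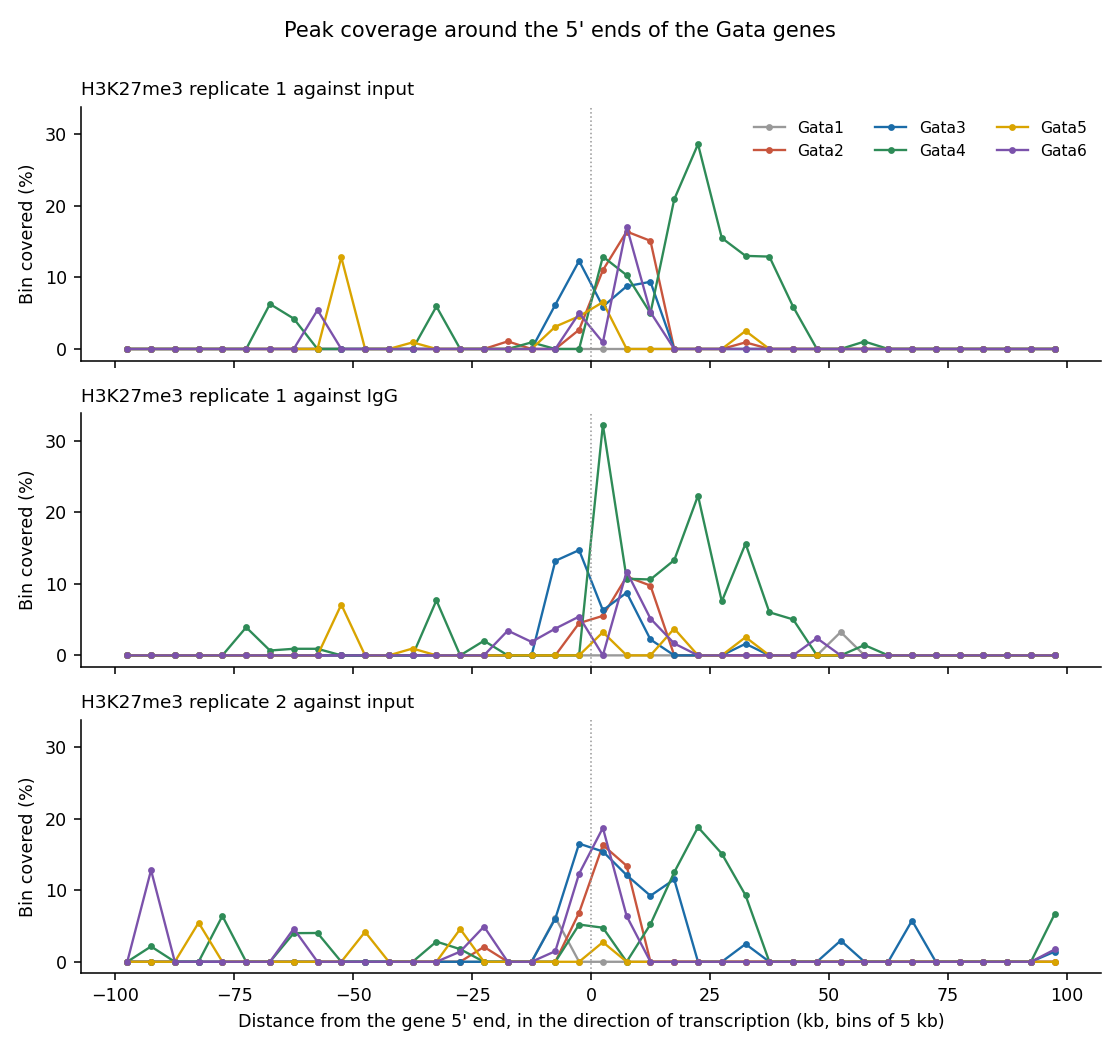
Percent of each 5 kb bin covered by peaks against distance from the gene 5′ end, from 100 kb upstream to 100 kb downstream in the direction of transcription, with 1 panel for each peak list and 1 line for each Gata gene. Coverage at Gata2 and Gata3 lies mostly within 20 kb of the 5′ end. That at Gata4 goes on to 45 kb downstream in replicate 1, with a further covered bin from 55 to 60 kb. Gata4, Gata5 and Gata6 have covered bins farther upstream as well.

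Promoters, taken as 1 kb on each side of the gene 5′ end, gave a less regular picture. Replicate 1 had a peak at the promoters of Gata2, Gata3, Gata5 and Gata6, 4 of 6, where 3.87% of protein-coding promoters had one. Called against IgG, the same library had a peak at Gata2, Gata3 and Gata5, beside 4.52% of all promoters. Replicate 2 had a peak at Gata4 alone, beside 4.16% of all promoters. No Gata promoter had a peak in both replicates (0 of 6, and 1.04% of all promoters).

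Several peaks lay just outside this window. In replicate 2 the nearest peak was 1047 bp from the 5′ end of Gata2 and 1164 bp from that of Gata3. At Gata4 it was 932 bp away in replicate 2 and 1074 bp away in replicate 1, and these were overlapping peaks that shared 96 bases. With 5 kb on each side of the 5′ end, 5 of 6 promoters had a peak in both replicates, beside 4.31% of all promoters. At Gata2, Gata3 and Gata4, the count of 0 thus came with distances near the 1 kb limit.

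The Gata genes have several starts each, apart from Gata5 with 1. When a peak within 1 kb of any annotated transcript start was counted, 5 genes had one in replicate 1, 5 against IgG and 4 in replicate 2, beside 6.09%, 6.86% and 7.41% of protein-coding genes. In both replicates there were 4, namely Gata2, Gata3, Gata4 and Gata6, beside 1.91% of genes. The replicates did not always mark the same start. At Gata4, 3 of 5 starts had a peak in both replicates, including a pair of starts 26.4 kb inside the gene. At Gata2 it was 1 of 4, the start 10.6 kb inside the gene. At Gata3 and Gata6 it was 0 of 6 each.

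In order to ask whether the libraries marked the same bases, the peaks were overlapped. A replicate 2 peak overlapped 9 of the 63 replicate 1 peaks in the Gata loci (14.3%, 95% Wilson interval 7.7% to 25%), compared with 2.85% of all replicate 1 peaks. In the other direction 9 of 37 (24.3%, interval 13.4% to 40.1%) were overlapped, compared with 1.9% of all nuclear replicate 2 peaks. These intervals cover counting error only and treat peaks of a locus as independent, which they are not. Counting overlapped peaks as a gap of 0, the median gap from a replicate 1 peak to the nearest replicate 2 peak was 845 bp in the Gata loci and 13.4 kb over all peaks, and 50.8% against 12.7% lay within 1 kb. Replicate 2 peaks covered 4.46% of the bases of the Gata loci and 0.238% of the nuclear genome. Overlaps and gaps depend on this density, and its part in the differences was not tested.

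The control used for calling made a smaller difference to peak overlap. Of the replicate 1 peaks against input, 38 of 63 (60.3%, interval 48% to 71.5%) were overlapped by a peak of the IgG-called list, compared with 51% of all peaks. At Gata6 it was 7 of 9, at Gata4 19 of 30, at Gata3 5 of 8, at Gata2 6 of 11 and at Gata5 1 of 5. Since the immunoprecipitated library was the same, these shares describe the effect of the control and not of a replicate.

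The 9 segments shared by both replicates, each called against input, were 6 at Gata4, 2 at Gata3 and 1 at Gata2. Those of Gata2 and Gata3 are given in full, since they are the bases called in both libraries, with CG in capitals and in the direction of transcription.
Gata2 intron (chr6:88196314-88196359, plus strand, 46 bases): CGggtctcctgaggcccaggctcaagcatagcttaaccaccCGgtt
Gata3 intron (chr2:9886419-9886530, minus strand, 112 bases): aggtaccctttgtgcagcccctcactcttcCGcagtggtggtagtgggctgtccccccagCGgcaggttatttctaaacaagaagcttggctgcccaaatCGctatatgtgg
Gata3 upstream flank (chr2:9891288-9891413, minus strand, 126 bases): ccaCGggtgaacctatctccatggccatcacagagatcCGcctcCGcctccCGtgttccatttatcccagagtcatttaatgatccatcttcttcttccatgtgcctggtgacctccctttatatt

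Both Gata3 segments were also covered over all of their bases by the IgG-called list, while the Gata2 segment was covered over 0 bases. The Gata2 segment lay 2.45 kb inside the gene, and the Gata3 segments lay 3.56 kb inside and 1.32 kb upstream of the gene 5′ end. They held 2, 3 and 4 CG. At Gata4 the shared segments lay between 1.12 and 32.3 kb inside the gene. The longest, of 349 bases, lay 21 kb inside the gene with 1.43 CG per 100 bases. The one densest in CG, at 15.2 per 100 bases, was a 66-base segment in a coding exon. The IgG-called list covered 308 bases of the longest and 0 bases of the densest. Gata5 and Gata6 had peaks in both replicates but no shared base between the lists called against input. At Gata6, 1 of the 9 IgG-called peaks of replicate 1 overlapped a replicate 2 peak.

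Sequence under the peaks was compared with the rest of the loci, since base composition was not used to choose the genes. In replicate 1, peaks held 2.97 CpG per 100 bases and the rest of the loci 1.74. Against IgG these values were 2.66 and 1.76, and in replicate 2 they were 3.62 and 1.72. Over all peaks of the lists the values were lower, at 1.35, 1.44 and 1.13 CpG per 100 bases. The ratio of observed to expected CpG was 0.453, 0.409 and 0.515 in Gata peaks and 0.305, 0.309 and 0.302 in the rest of the loci. Over the 6 loci together, peaks of both replicates were thus denser in CpG than the DNA around them.

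The density was higher in peaks than outside them at Gata2, Gata3, Gata4 and Gata6 in all 3 lists. At Gata2 it was 4.2, 4.68 and 5.09 per 100 bases in peaks and 3.08, 3.08 and 3.03 outside. At Gata6 replicate 2 stood apart, with 5.03 against 1.6, while replicate 1 had 2.2 against 1.73. At Gata5 it was higher in both lists of replicate 1, and 0 in the only replicate 2 peak.

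CpG islands were defined as windows of 200 bases with over 50% GC and an observed to expected CpG ratio over 0.6, merged where they overlapped. They made up 14.1% of the bases of the loci, in 50 islands. Peaks covered 9.28% of island bases and 4.44% of other bases in replicate 1, 8.36% and 3.85% against IgG, and 12.2% and 3.18% in replicate 2. Gata2 went the other way in replicate 1, with 6.64% of island bases and 11% of other bases covered, and in replicate 2 had 19.4% and 3.34%. The only Gata5 peak of replicate 2 lay outside islands (0% and 0.778%), and at Gata6 against IgG the shares were 2.75% and 2.74%. Gata1 had 0 islands in its locus.

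**Figure D4:**
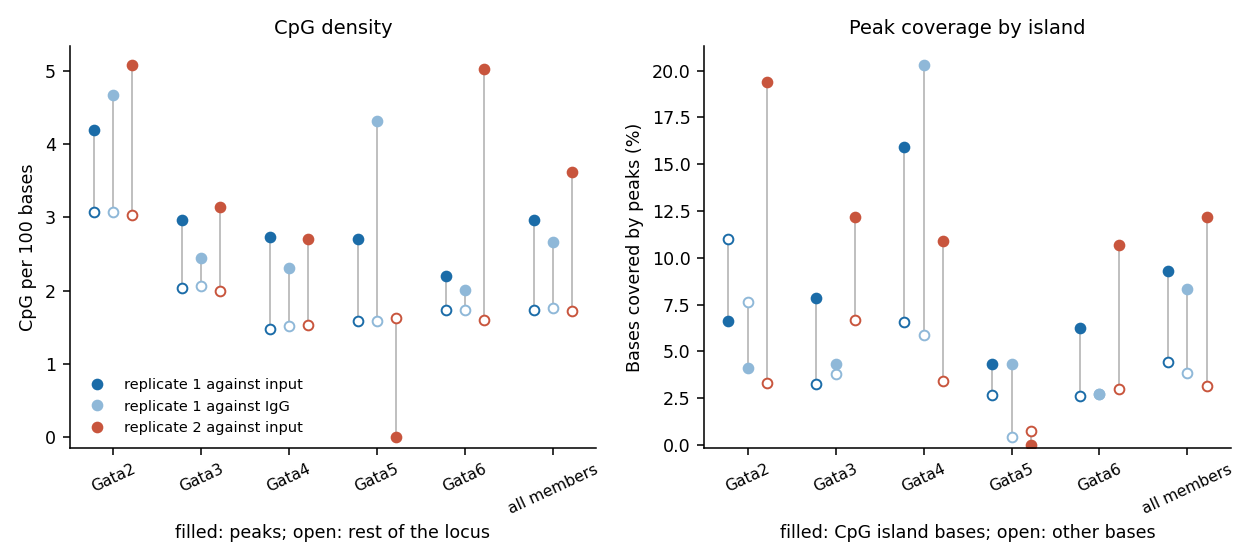
CpG content and peaks in the Gata loci, by gene and over all 6 genes, with 1 colour for each peak list. The left panel gives CpG per 100 bases in peaks (filled) and in the rest of the locus (open), and the right panel gives the percent of CpG island bases (filled) and of other bases (open) covered by peaks. Over all genes the filled circles lie above the open ones in both panels, while Gata5 in replicate 2 goes the other way in both panels and Gata2 in replicate 1 in the right panel.

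Gata1 was the gene without peaks. Its nearest replicate 2 peak, of 309 bp and with a fold enrichment of 2.6, lay 5.98 kb upstream of the gene 5′ end, just outside its locus. The nearest peak in replicate 1 was 799 kb away against input and 52.8 kb away against IgG. Gata1 is the only one of these genes on the X chromosome. Of 948 protein-coding loci there, 11.6% had a peak in replicate 1, 11.8% against IgG, 20.3% in replicate 2 and 7.28% in both replicates. Within 500 bases on each side of its 5′ end it held 18 CpG, more than 32.5% of protein-coding genes, and the median gene held 41. Gata4, with peaks, held 12 in the same window, and Gata2 held 88. For Gata4 this window lay at the most upstream start. Its pair of starts 26.4 kb inside the gene lay in a CpG island of 1026 bases. Between 5 and 10 kb from the genes, replicate 2 had 1 peak each at Gata1, Gata3 and Gata6, and replicate 1 had 1 each at Gata3 and Gata5.

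Single peaks in the Gata loci had fold enrichments close to those of all peaks. The authors' fold enrichment, a ratio of pileup to control background with a pseudocount of 1, ranged from 2.51 to 3.37 in replicate 1, from 2.57 to 3.61 against IgG and from 2.36 to 2.88 in replicate 2. It depends on depth and was compared only within a list. The medians were 2.7, 2.71 and 2.51, compared with 2.63, 2.66 and 2.45 over all peaks. A fold enrichment of 3 or higher was reached by 7.94%, 11.9% and 0% of Gata peaks, and by 8.96%, 10.7% and 1.56% of all peaks. The weakest peaks corresponded to a pileup of 4 tags in replicate 1 and 6 tags in replicate 2. The peaks were somewhat longer than usual, with a median of 170 bp, 150 bp and 252 bp, compared with 119 bp, 120 bp and 181 bp over all peaks. The single highest fold enrichments were at Gata5 in replicate 1 (3.37), at Gata3 against IgG (3.61) and at Gata4 in replicate 2 (2.88).

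Some of these peaks overlap other annotated genes, to which they could equally be assigned. At Gata3 the intronic peaks lie partly within 9230102O04Rik, 4930412O13Rik and the antisense gene Gm13256. At Gata5, 4 of the 5 replicate 1 peaks lie within the antisense gene Gata5os. Upstream peaks of Gata6 lie within 1010001N08Rik, and the most upstream peaks of Gata2 within Gm38708.

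Related genes were then counted by the same rule, with 15.7% of all protein-coding loci marked in both replicates as the background. Other genes with a GATA-type zinc finger, which are chromatin regulators rather than lineage factors in most cases, were marked in both replicates at 1 of 8 loci. That gene was Trps1, a repressor in cartilage and hair, at 0.423% ± 0.471 (SD, n = 2), and the median of the list was 0.0468%. Of the other 7, 3 had a peak against input in replicate 2 but not in replicate 1, and 4 had 0 peaks in every list.

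Genes whose products work with Gata factors were examined next. Both replicates marked 11 of 18 (61.1%), with a median covered share of 0.677%. The highest were Foxa1 (8.6% ± 5.29, SD, n = 2) and Foxa2 (7.01% ± 2.8), pioneer factors of endoderm, Nkx2-5 (7.84% ± 0.497), a homeobox factor of the heart, and Tal1 (5.88% ± 1.74), a partner of Gata1 and Gata2 in blood cells. Klf1 and Spi1, a red cell and a myeloid factor, had 0 peaks in every list, as did Gata1. Other blood factors of this list were marked in both replicates like Tal1, namely Lyl1 (3.46% ± 2.39) and Runx1 (0.266% ± 0.00512). Depending on the list, 25% to 35.7% of all protein-coding loci had a peak.

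Of 20 genes known as Gata targets or as products of Gata-dependent lineages, 4 (20%) were marked in both replicates, with a median of 0.183%. These were Sox17 (6.61% ± 2.26, SD, n = 2), an endoderm transcription factor, Il5 (1.71% ± 0.469), a T cell cytokine, Hbb-bs (1.7% ± 0.917), a beta globin, and Kit (0.278% ± 0.11), a receptor of blood progenitors. The shares of Il5 and Hbb-bs came from 1 peak in each replicate, and Il5 had 0 peaks against IgG. Alas2, Itga2b, Gp1ba, Pf4, Il4, Nppb and Actc1 had 0 peaks in every list. Sox17 was the only transcription factor of this list.

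**Figure D5:**
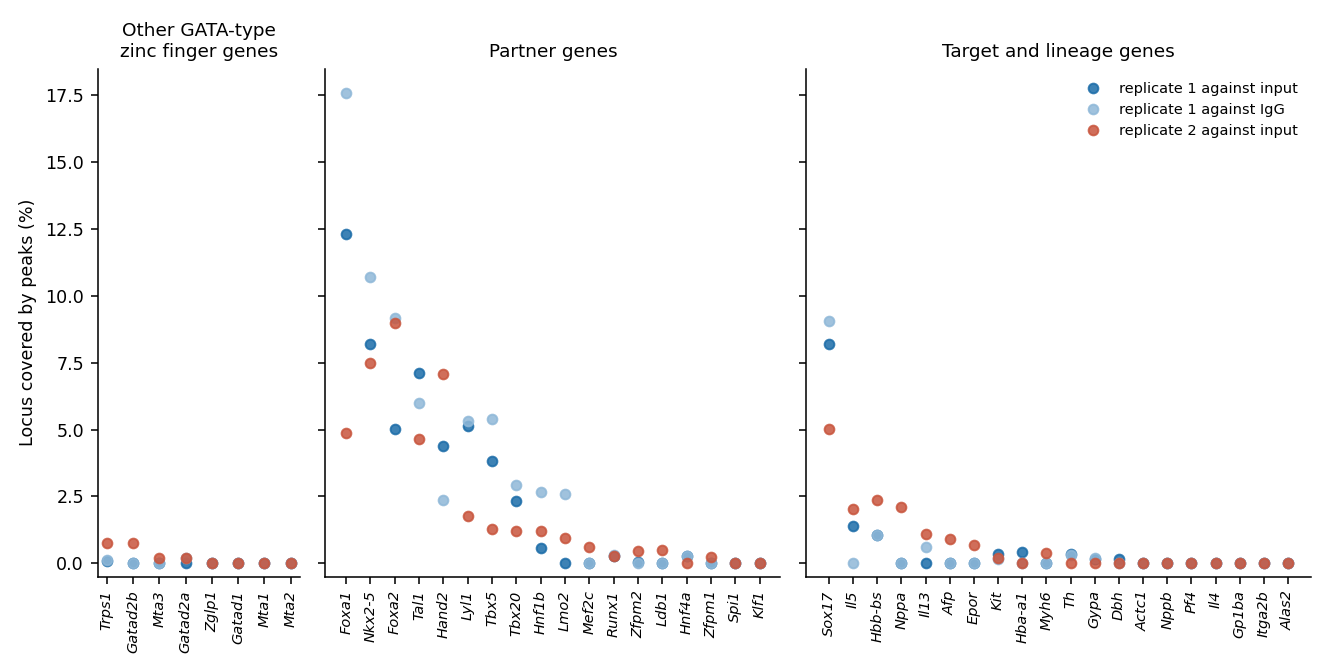
Share of the locus covered by peaks, in percent of its bases, for genes related to the Gata factors, in 3 panels: other GATA-type zinc finger genes, partner genes, and target and lineage genes. Each circle is 1 of the 3 peak lists, and genes are ordered by the mean of both replicates against input. Partner genes reach a mean of 8.6%, target and lineage genes 6.61% at Sox17, and the zinc finger genes 0.423%.

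The genes most like Gata2 in covered share over the 3 lists were Isl1, Ccdc184, Dbx1, Pax6 and Barhl1, by Euclidean distance of log2(percent + 0.1), with distances of 0.359 to 0.512. Their means ranged from 7.9% to 9.52%. Isl1, Dbx1, Pax6 and Barhl1 encode homeobox factors known from neural and endocrine development. The likeness is over 3 lists of 2 libraries only.

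The peak lists hold no expression values, so the labelled tissue could not be checked against transcripts. As a description, 7 of 10 dental mesenchyme markers had a peak in both replicates, beside 15.7% of all protein-coding loci. The highest shares of this list were those of Barx1 (2.26% ± 2.1, SD, n = 2) and Pax9 (1.98% ± 0.467). Msx1 and Vim had no replicate 1 peak against input, and Msx2 had no peak in any list. Of the dental epithelium markers 2 of 7 had a peak in both replicates, and of the blood cell markers 2 of 5. The median covered share was 0.47%, 0.0914% and 0.247% for these lists. All of these medians lay below the 4.85% of the Gata genes.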

How the data were processed

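H3K27me3 ChIP-seq was analysed from 2 H3K27me3, 2 input and 1 IgG libraries of molar mesenchyme, grouped by their labels. Per the study's methods and the labels, reads were aligned to GRCm38 (mm10) with BWA and sorted with SAMtools, and the authors called broad peaks with MACS 2.1.1.20160309 at a p-value of 0.005, without pooling libraries. The modelled fragment length was 46 bp for replicate 1 and 71 bp for replicate 2, close to the tag lengths, which narrows peaks. For each peak, the authors deposited a pileup signal (scaled to the smaller library), a −log10 p-value and a fold enrichment, which is a ratio over the control with a pseudocount of 1. Duplicate tags were removed by the caller, which left 23688420 and 51681224 input tags and 24440452 IgG tags.

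Here, peaks were intersected with GENCODE M21 loci, with an overlap of at least 1 base, in Python 3.11.15 with pandas 2.3.3, numpy 2.4.6 and pysam 0.24.0, after the interval routines were tested on simulated data. Covered share was the percent of locus bases under peaks, and values are given as mean ± SD of replicates 1 and 2 against input. The deposited alternative formats of the same peaks were not used. The 9 mitochondrial peaks of replicate 2 entered no comparison. No test was run, as there was 1 condition. The genes named were the 6 Gata genes, up to 4 genes of each related list with the highest mean covered share, and the 5 genes nearest to the member of highest share. Genes at 0 in every list, and Lyl1, Runx1, Barx1, Pax9, Msx1 and Vim, were named after their values were seen. The genes and lists were chosen with earlier results of these data known. Alternatives were stricter peak thresholds, other flanks and promoter definitions, the IgG-called list, a reduced replicate 2 and each replicate left out.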

Additional observations from a re-analysis of the deposited data

How the results depend on the processing

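No paired analysis was possible because the results come from no test and the libraries form a single condition. Of 55 alternatives to the summary values, 29 stayed within their range and 26 moved. Reversals were not assessed. For single genes, 34 of 48 stayed and 14 moved. The strict thresholds by construction keep fewer peaks, 2040 in replicate 1 and 522 in replicate 2 at a fold enrichment of 3, and 744 and 3681 at a −log10 p of 3.

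At a fold enrichment of 3 or higher, 0 Gata loci had a peak in both replicates, the median covered share was 0.105%, the mean number of peaks 2.5, the share of replicate 1 peaks overlapped by replicate 2 0%, and that overlapped by the IgG-called list 40%. The related genes with a peak in both replicates were then 0 zinc finger genes, 1 partner gene and 0 target and lineage genes. At a −log10 p of 3 or higher, these values were 1 locus, 0.183%, 4 peaks, 0% and 33.3%, and the observed to expected CpG ratio of peaks was 0.612 instead of a mean of 0.484. Widening promoters to 5 kb around the 5′ end raised their count to 5, and any transcript start gave 4. A flank of 10 kb gave a median of 4.22%. Without a flank, 7 partner genes and 2 target and lineage genes remained. Leaving out 1 replicate gave 1 to 4 promoters, a median of 3.73% to 4.29%, 37 to 63 peaks, 5 loci, 1 to 4 zinc finger genes, 12 to 15 partner genes and 8 to 9 target and lineage genes. With replicate 1 left out the promoters numbered 1, and with replicate 2 left out they numbered 4. The cause of these differences was not tested.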
